A study of Mus musculus with 7 samples.

Results

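Runx3-bound regions of resting CD8-TC that lie next to each other in the genome are described here. Starting from the deposited list of 4934 Runx3-bound regions, neighbours were joined when the gap between their edges was 10 kb or less, and 966 regions (19.6%) fell into 430 groups of 2 or more. The other 3968 regions are called single regions. The members were thus chosen by measured values, the positions of the Runx3 regions, so group sizes, spans and gaps are given as a description with no test. CD8-TC, the cytotoxic T lymphocytes of the spleen, had been isolated from ICR mice on anti-CD8 magnetic beads at a purity above 95%, and freshly isolated cells were taken as resting. Per the labels, cells of 18 mice were pooled and chromatin was sheared to about 300 bp. The 7 chromatin immunoprecipitation libraries were 3 made with an in-house antiserum to Runx3 (from 2 biological repeats), 2 made with an antibody to histone H3 monomethylated at lysine 4 (H3K4me1) and 2 made with rabbit non-immune serum (NIS). No treatment or genotype was compared within the series. Each list came from joined repeats and holds positions alone, so the values below carry no error between repeats and no read depth, and samples could not be tested against each other. Intervals are 95% confidence intervals over regions that cover counting error only. Regions of the same group are not independent, so the main shares are also given for the widest region of each group.

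Runx3 is a transcription factor of the RUNX family that binds DNA as a heterodimer with Cbfb and is needed for the silencing of Cd4 and for the cytotoxic program of CD8-TC. H3K4me1 is laid down around enhancers, the distal elements that transcription factors bind, and it is also found at the shoulders of many promoters. Genes that define a cell type often have several enhancers strung along the locus, in introns or in the intergenic space beside the gene.

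DNA of the Runx3-bound regions is shown for windows of 200 bp around the midpoints of 12 members. The lists do not give the point of highest signal within a region, so the site of binding may lie outside the window. They were picked, after their values had been seen, from groups beside genes of T lymphocytes and so as to show members with several, with 1 and with no RUNX motif. The windows contain no annotated exon and are written 5′ to 3′ on the plus strand of mm9. Capitals mark the RUNX motif, searched in the forms TGTGGT, then TGTGGC, then TGCGGT and lastly TGCGGC on both strands, so that the reverse complements also appear. First come the 3 members between Cd8b1 and Cd8a, which encode the chains of the CD8 co-receptor, at chr6:71291294-71291493, chr6:71292893-71293092 and chr6:71294877-71295076.
Cd8b1 member 1: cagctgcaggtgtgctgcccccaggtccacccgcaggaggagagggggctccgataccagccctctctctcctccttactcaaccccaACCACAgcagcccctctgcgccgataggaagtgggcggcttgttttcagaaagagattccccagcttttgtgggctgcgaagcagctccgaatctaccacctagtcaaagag
Cd8b1 member 2: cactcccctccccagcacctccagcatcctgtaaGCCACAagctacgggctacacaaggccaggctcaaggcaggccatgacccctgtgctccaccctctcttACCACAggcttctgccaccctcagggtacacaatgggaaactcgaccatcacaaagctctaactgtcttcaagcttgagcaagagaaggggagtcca
Cd8b1 member 3: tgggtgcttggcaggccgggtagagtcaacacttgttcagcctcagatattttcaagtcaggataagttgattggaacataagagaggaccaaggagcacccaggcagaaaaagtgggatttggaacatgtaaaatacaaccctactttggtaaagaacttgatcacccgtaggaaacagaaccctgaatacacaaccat
The next 3 lie in introns of Il2ra, the alpha chain of the IL-2 receptor, at chr2:11575098-11575297, chr2:11576996-11577195 and chr2:11579327-11579526.
Il2ra member 2: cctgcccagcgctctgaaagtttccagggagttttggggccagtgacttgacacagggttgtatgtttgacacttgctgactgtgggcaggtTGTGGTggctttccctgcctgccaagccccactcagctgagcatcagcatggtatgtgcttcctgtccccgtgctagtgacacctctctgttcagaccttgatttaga
Il2ra member 3: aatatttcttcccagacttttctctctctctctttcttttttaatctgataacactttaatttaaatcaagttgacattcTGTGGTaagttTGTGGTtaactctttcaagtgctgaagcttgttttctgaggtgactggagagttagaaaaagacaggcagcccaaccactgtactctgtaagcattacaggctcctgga
Il2ra member 4: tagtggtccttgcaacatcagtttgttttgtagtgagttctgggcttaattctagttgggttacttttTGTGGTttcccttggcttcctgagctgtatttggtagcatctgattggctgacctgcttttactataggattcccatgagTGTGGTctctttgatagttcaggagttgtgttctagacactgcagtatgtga
From Prf1, which encodes the pore-forming perforin, the window before the TSS (chr10:60760337-60760536) and an intronic window (chr10:60763879-60764078) are shown.
Prf1 member 1: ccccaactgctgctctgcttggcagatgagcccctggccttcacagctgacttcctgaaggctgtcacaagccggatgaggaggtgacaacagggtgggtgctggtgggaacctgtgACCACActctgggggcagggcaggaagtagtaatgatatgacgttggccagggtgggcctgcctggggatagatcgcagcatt
Prf1 member 2: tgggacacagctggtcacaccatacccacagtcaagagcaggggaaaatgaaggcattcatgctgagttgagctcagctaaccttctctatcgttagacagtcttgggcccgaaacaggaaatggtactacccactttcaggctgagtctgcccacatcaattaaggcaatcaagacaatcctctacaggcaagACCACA
Single windows follow from an intron of Runx1 (chr16:92822272-92822471), from upstream of Tcf7 (chr11:52131992-52132191), from upstream of Grap2 (chr15:80440834-80441033) and from upstream of Emb (chr13:118005010-118005209).
Runx1 member 2: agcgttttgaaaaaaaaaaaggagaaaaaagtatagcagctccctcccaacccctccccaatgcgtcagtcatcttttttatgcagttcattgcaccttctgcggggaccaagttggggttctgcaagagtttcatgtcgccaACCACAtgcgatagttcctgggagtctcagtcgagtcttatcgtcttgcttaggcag
Tcf7 member 4: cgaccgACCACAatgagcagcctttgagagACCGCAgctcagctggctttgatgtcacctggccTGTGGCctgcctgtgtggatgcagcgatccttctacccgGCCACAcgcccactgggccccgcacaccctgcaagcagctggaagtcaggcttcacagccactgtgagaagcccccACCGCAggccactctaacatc
Grap2 member 4: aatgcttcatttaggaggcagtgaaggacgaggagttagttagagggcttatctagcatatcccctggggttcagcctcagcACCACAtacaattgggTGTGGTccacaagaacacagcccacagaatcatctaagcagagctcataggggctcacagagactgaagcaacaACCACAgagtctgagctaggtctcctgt
Emb member 2: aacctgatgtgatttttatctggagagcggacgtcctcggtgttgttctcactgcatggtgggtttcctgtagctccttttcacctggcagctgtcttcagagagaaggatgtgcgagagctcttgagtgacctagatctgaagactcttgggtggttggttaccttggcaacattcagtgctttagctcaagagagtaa
The Tcf7 window held 5 RUNX motifs, the Grap2 window 3 and the intronic Il2ra windows 1, 2 and 2. In the third Cd8b1 window and the Emb window no RUNX motif was found, although the whole region behind the former held 4 and each was a called Runx3-bound region.

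Most groups were pairs. Of the 430 groups, 352 held 2 regions, 56 held 3, 17 held 4, 4 held 5 and 1 held 6. The 78 groups of 3 or more contained 262 of the members, and the 22 groups of 4 or more contained 94. The span of a group from its first to its last base had a median of 6254 bp (5773 to 6794), ranging from 1052 to 30700 bp. It was 5373.5 bp for groups of 2 and 12676.5 bp for groups of 3 or more. The 536 gaps between joined neighbours had a median of 3543.5 bp (3134 to 3983). In bins of 0.5 kb, the shortest gaps were the most common. There were 99 gaps under 1 kb, 78 of 1 to 2 kb, 169 of 2 to 5 kb and 190 of 5 kb or more. The members themselves filled 28.8% of the summed span of 3.01 Mb, so that most of a group was sequence between called regions. The limit of 10 kb was an arbitrary border. The widest gaps inside it were 9960 bp, at Mctp2, and 9949 bp, at Il2ra, and the narrowest gaps outside it were 10054 bp, beside Arl6ip5, and 10055 bp, beside Irf2bp2. All 8 regions flanking these 4 gaps overlapped H3K4me1. At the other end, neighbours at Gng2 were 4 bp apart and neighbours beside Zfp36 were 6 bp apart. Whether the peak caller split single broad sites there was not tested, but 796 members were counted when regions within 1000 bp were first merged.

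**Figure D1:**
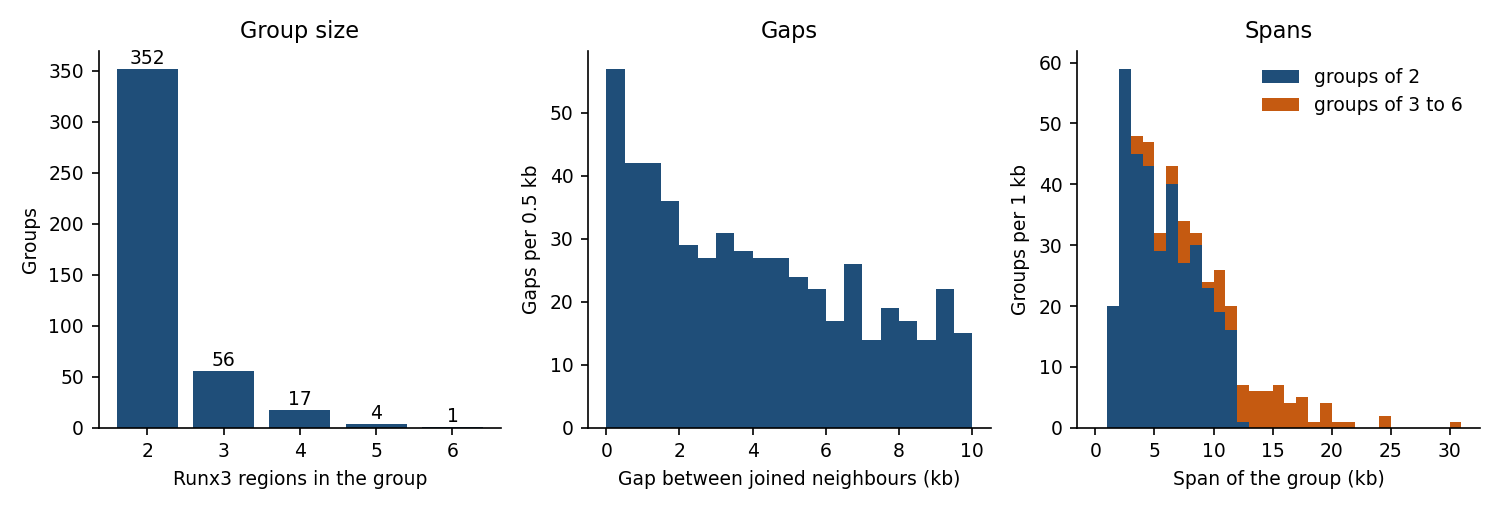
Number of groups by the number of Runx3 regions they hold (left), number of gaps between joined neighbours in bins of 0.5 kb (middle), and number of groups by span in bins of 1 kb, for groups of 2 (blue) and groups of 3 to 6 (orange) (right). Pairs make up 352 of 430 groups, the gap count is highest under 0.5 kb, and spans above about 12 kb belong to groups of 3 or more.

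Nearly every member carried the enhancer mark. H3K4me1 overlapped 919 of 966 members, 95.1% (93.6 to 96.3), against 78.8% of all 4934 Runx3-bound regions and 74.8% (73.5 to 76.2) of single regions. The difference between members and single regions was 20.3 percentage points (18.3 to 22.1). It was 21.2 points (18.6 to 23.2) with the widest region of each group only. In 394 groups (91.6%) every member was marked, in 25 some members were, and in 11 none was. All of the latter were pairs, and none of the groups of 3 or more lacked H3K4me1 altogether. Unmarked pairs lay in or beside, among others, Cntnap2 and Ptchd1, genes known from neurons, Ano3, an anoctamin gene, Crisp3, a secretory protein gene, and Vmn1r26, a vomeronasal receptor gene. The pair inside Cntnap2 spanned 1646 bp and had no RUNX motif within the central 200 bp of either member. Over all 47 members without H3K4me1, 19 (40.4%) had a motif there. The named pairs were picked with their values seen, and the genes of all 11 were not sorted by kind.

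The difference was not spread evenly over distances from transcription start sites (TSS). Within 1 kb of a TSS, 89.6% of members and 88.3% of single regions overlapped H3K4me1, a difference of 1.29 points (-4.66 to 5.74) that its interval does not separate from 0. At 1 to 5 kb the shares were 98.5% and 88.8%, and at 5 to 50 kb they were 95.8% and 79.0%. More than 50 kb from any TSS, 94.2% (87.9 to 97.3) of the 103 members were marked but only 42.4% (39.1 to 45.8) of the 821 single regions. That difference was 51.8 points (44.6 to 56.4), and its interval does not overlap that at 5 to 50 kb, which ran from 13.9 to 19.2. GC content moved along with it. The median GC content of the central 200 bp was 46.5% in members and 41% in single regions beyond 50 kb, and its part in the difference was not tested.

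The RUNX motif was more common in members than in single regions, by a margin that was smaller among regions with H3K4me1. A motif lay within the central 200 bp of 724 members, 74.9% (72.1 to 77.6), compared with 66.0% of all regions and 63.8% (62.3 to 65.2) of single regions. In windows of the same length 5 kb to either side, the share was 30.3% for members and 27.1% for single regions, a difference of 3.18 points (0.94 to 5.47). Such a window can fall on another member of the group, whereas for single regions it cannot fall on a called region. The difference between members and single regions was 11.2 points (8.0 to 14.2), and 10.9 points (6.33 to 15.1) with the widest region of each group. When regions with H3K4me1 alone were compared, 76.7% of members and 75.6% of single regions had a motif, and the difference shrank to 1.12 points (-2.09 to 4.18). By distance to a TSS, with or without H3K4me1, the difference was 0.75 points (-7.27 to 8.01) under 1 kb. It was 3.73 points (-3.40 to 10.1) at 1 to 5 kb and 9.52 points (5.01 to 13.7) at 5 to 50 kb. Beyond 50 kb from a TSS the shares were 73.8% and 46.2%. Of the 4 variants, TGTGGT was found in 52.3% of members and 45.2% of single regions, TGTGGC in 26.9% and 21.3%, TGCGGT in 11.8% and 10.4%, and TGCGGC in 5.69% and 5.42%. For the last 2 the interval of the difference included 0. The ETS motif, searched in the forms AGGAAA, then AGGAAG, then CGGAAA and lastly CGGAAG on both strands, lay in 67.1% of members and 63.0% of single regions. With the widest region of each group, that difference was 3.04 points (-1.79 to 7.62). Among regions with H3K4me1 the shares were 68.1% and 69.7%, a difference of -1.61 points (-5.10 to 1.76), and in groups of 3 or more the share was 61.8%.

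**Figure D2:**
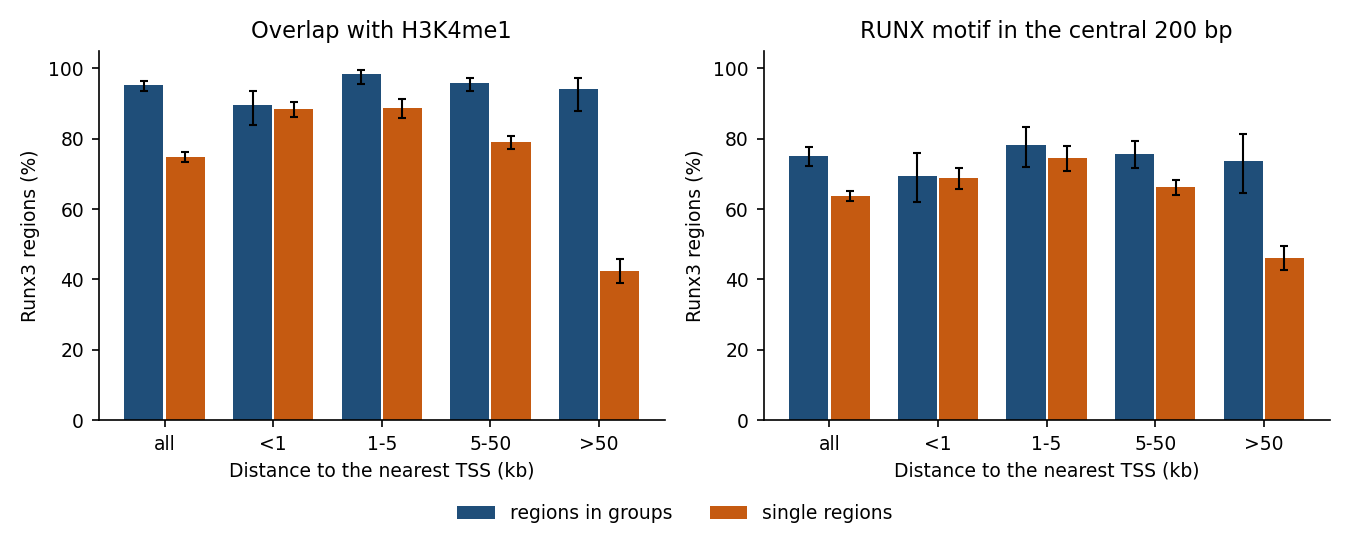
Share of Runx3-bound regions that overlap H3K4me1 (left) and that hold a RUNX motif in the central 200 bp (right), for regions in groups (blue) and single regions (orange), over all regions and by distance to the nearest TSS in kb. Bars are percentages and lines are 95% Wilson intervals. Bars for grouped regions stay high at every distance, whereas those for single regions fall beyond 50 kb, to 42.4% for H3K4me1 and 46.2% for the motif.

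The mark and the motifs were also counted within pairs. In the 352 pairs, H3K4me1 was on both members in 321, on 1 in 20 and on neither in 11. If each member were marked at the overall rate of 94.0% without regard to its partner, 311 pairs with both and 1.25 with neither would be counted. In 125 of the pairs a single H3K4me1 region touched both members, so that the mark on neighbours was not called independently. For the RUNX motif, 194 pairs had it in both members, 131 in 1 and 27 in neither, beside 191 and 24.3 computed in the same way. For the ETS motif the counts of both and neither were 168 and 34, beside 168 and 33.8. Over all groups, 226 (52.6%) had a RUNX motif at the midpoint of every member, 176 at some and 28 at none. The group of 3 upstream of Emb, which encodes the membrane glycoprotein embigin, was in the last class, although all 3 of its members overlapped H3K4me1.

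Members often shared a single H3K4me1 region. In 178 groups (41.4%) 1 H3K4me1 region touched 2 or more members, and in 135 (31.4%) it touched every member. The share with such a region was 35.5% for groups of 2, 62.5% for groups of 3 and 81.8% (61.5 to 92.7) for groups of 4 or more. A larger group has more chances of sharing by its size alone. The widest H3K4me1 region touching a member had a median width of 4122 bp (3896 to 4382), against 2308.5 bp (2235 to 2389) for marked single regions. H3K4me1 covered a median of 86.3% of a group's span. It covered 69.1% of all bases in the gaps, where no Runx3-bound region was called, compared with 4.14% of the genome. In the 10 kb on either side of the outermost members, 42.1% of bases were covered, against 23.6% beside single regions and 30.5% beside single regions that overlapped H3K4me1 themselves. Cover above that of single regions was thus measured past the borders of the groups as well. By the joining rule, the 10 kb on either side hold no other Runx3-bound region, for groups and for single regions alike.

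**Figure D3:**
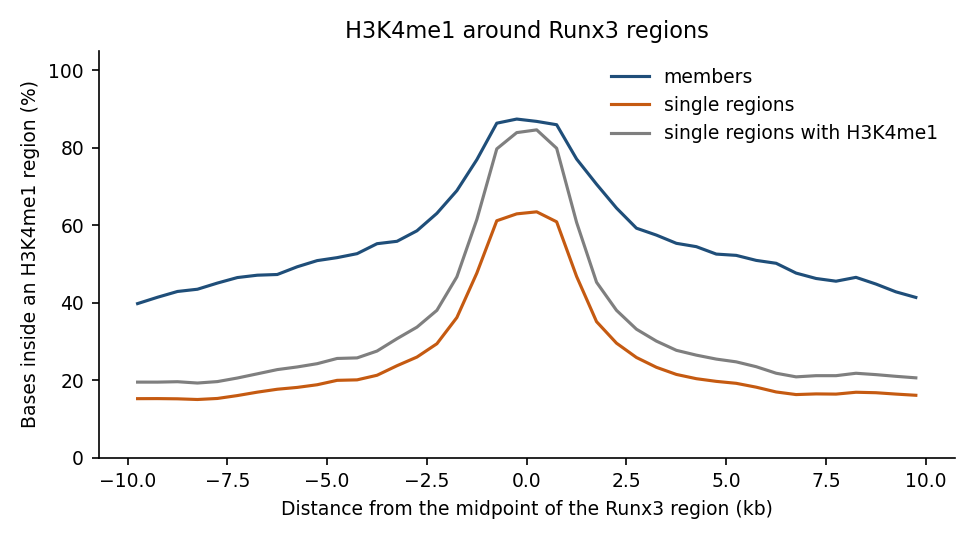
Percentage of bases inside an H3K4me1 region in bins of 500 bp up to 10 kb on either side of the midpoint of Runx3-bound regions, for members of groups (blue), single regions (orange) and single regions that overlap H3K4me1 (grey). Cover is 87.4% just before the midpoint of members and 50.9% at about 5 kb, where it is 18.9% for single regions. The window around a member includes its neighbours.

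Most members lay 5 to 50 kb from a TSS. Of the members, 17.0% lay within 1 kb of a TSS, 20.5% at 1 to 5 kb, 51.9% at 5 to 50 kb and 10.7% beyond 50 kb, whereas single regions had 21.6%, 14.2%, 43.5% and 20.7%. More than 5 kb away were 62.5% (59.4 to 65.5) of members, beside 63.9% of all regions and 63.7% of the widest regions of the groups. The midpoint fell in an intron for 49.1% of members and 40.5% of single regions, and in intergenic sequence for 45.1% and 51.4%. Of the groups, 136 had a member within 1 kb of a TSS, 45 combined such a member with another beyond 5 kb, and in 223 every member was beyond 5 kb. A total of 190 groups (44.2%) lay wholly inside 1 protein-coding gene, 93 overlapped a gene in part and 147 overlapped none. In 50 of the last, every member was over 50 kb from a protein-coding TSS. Members had a median width of 897.5 bp (886 to 912), against 836 bp (827 to 846) for single regions. The share of regions that were members differed between chromosomes, from 7.97% on X (11 of 138) to 29.7% on chromosome 8.

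The genes beside the groups were counted next. A gene was assigned when its body overlapped a group or its TSS was the nearest protein-coding TSS to a member, within 100 kb. This gave 460 of 22350 protein-coding genes, 2.06%, and 13.6% of the 3382 genes with any Runx3-bound region. The number depended on the joining and the assignment, at 293 genes with a gap of 5 kb, 699 with 20 kb and 306 when only body overlap was counted. A group of 3 or more was found at 97 genes, and 23 genes had 2 or more groups. The most groups, 3 each, were at Ablim1, an actin-binding protein gene, and at the predicted gene Gm20388. Among the other genes with several groups were Galnt2, whose 2 groups are also counted for Gm20388, Klhl25, Mctp2, Pitpnc1, Rere, Thada and Tmem59, which are on none of the lists below, and, from those lists, Tcf7, Lef1, Ets1 and Bach2, which encode transcription factors, the phosphatase gene Ptprc (CD45), the activation antigen gene Cd69, the receptor gene Il21r and S1pr1, whose product guides exit from lymph nodes. Genes with a group had a median length of 34.9 kb, close to the 33.7 kb of genes with single regions only and above the 15.4 kb of all protein-coding genes.

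Gene lists for T lymphocyte functions were compiled with results of these data known, and their counts are a description. Over 6 such lists, 61 of 205 genes (29.8%, 23.9 to 36.3) had a group, and they made up 43.0% of the 142 listed genes with any Runx3-bound region. Cytokine receptors and Jak-Stat signalling had 14 of 33 genes with a group, the T-cell receptor (TCR) complex, co-receptors and proximal signalling 14 of 35, and homing receptors, integrins and chemokines 8 of 27. For transcription factors of T lymphocytes the count was 12 of 49, for survival, NF-kB and feedback regulators 8 of 36, and for cytotoxic effectors and NK receptors 5 of 25. As lists for other cells, B-cell identity genes had 0 of 16, myeloid identity genes 0 of 16 and erythroid identity genes 0 of 12. This leaves upper limits of 19.4%, 19.4% and 24.2%. The share over all protein-coding genes was 2.06%, below each of these limits, so the counts of 0 do not set these lists apart from genes at large. Cytosolic ribosomal protein genes had 2 of 54, Rpl18 and Rpl37. Single regions did reach 3 of the B-cell and 2 of the myeloid genes. Genes of the 6 T lymphocyte lists had a median length of 24.6 kb, against 15.4 kb for all protein-coding genes. The part of gene length in these shares was not tested.

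**Figure D4:**
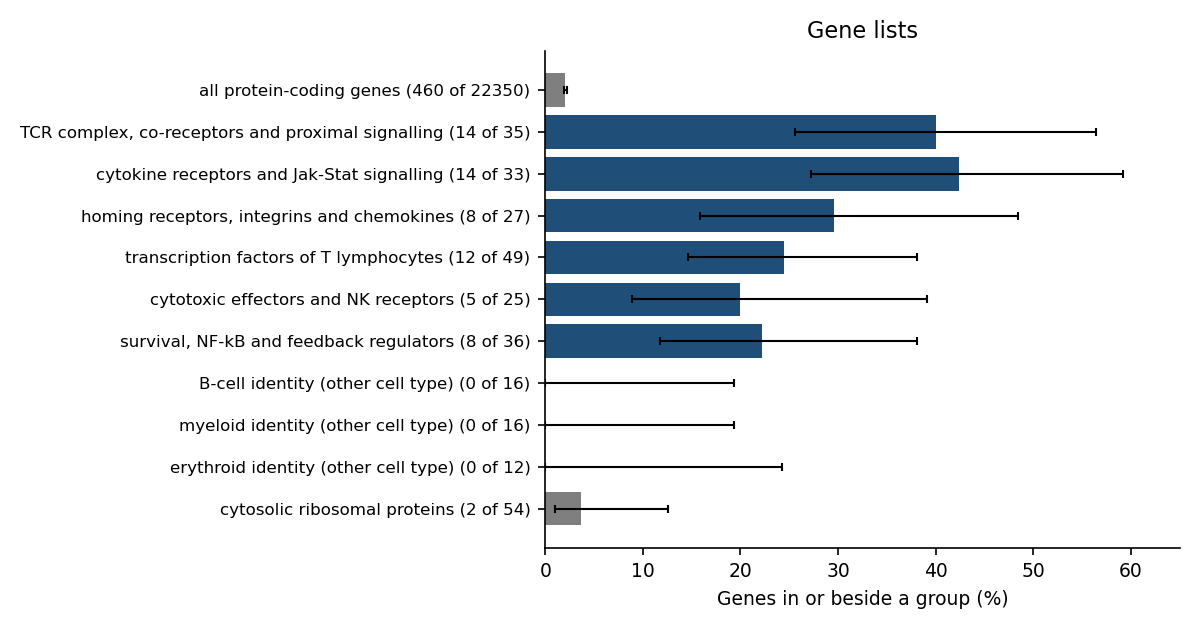
Percentage of the genes of each list that have a group in or beside them, with the counts in brackets and 95% Wilson intervals as lines. Blue bars are lists for T lymphocytes and grey bars are all protein-coding genes and ribosomal protein genes. The 6 T lymphocyte lists lie between 20% and 42.4%, beside 2.06% of all genes.

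The largest group lay beside a gene of TCR signalling. Upstream of Grap2, which encodes the adaptor Gads that links the TCR to its signalling complex, 6 regions lay across 24521 bp (chr15:80420839-80445359), between 8960 and 30446 bp from the nearest TSS. For the outermost member that was the TSS of Enthd1, the gene on the other side, and for the other 5 that of Grap2. All 6 overlapped H3K4me1, which covered 97.5% of the span in 6 regions, and all 6 had a RUNX motif near the midpoint. At Bcl10, an adaptor on the path from the TCR to NF-kB, 3 regions spanned 17743 bp, with 1 member 226 bp from the TSS, and H3K4me1 covered 53.0% of the span. Between Cd8b1 and Cd8a, 3 regions were packed into 4625 bp (chr6:71290913-71295537), with gaps of 590 and 897 bp. They lay 18564, 20163 and 22147 bp from the TSS of Cd8b1, downstream of that gene. H3K4me1 overlapped each, but the midpoints of the first and second member lay outside the H3K4me1 regions. Pairs were found at Prkcq (protein kinase C theta, span 10967 bp), Fyb (an adaptor, 9748 bp), Ptpn22 (a phosphatase that dampens TCR signals, 8975 bp) and Ptprc (6659 bp).

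The list of cytokine receptors and Jak-Stat signalling had 6 genes with a group of 3 or more, the most of the lists. Between Il10rb and Ifnar1, which encode chains of the IL-10 and type I interferon receptors, 5 regions spanned 16600 bp (chr16:91442395-91458994). A single H3K4me1 region of 13671 bp touched 4 of them, and all 5 had a RUNX motif near the midpoint. At Il2ra the midpoint of a member lay 7 bp from a TSS. After a gap of 9949 bp came the 3 intronic members shown above, 10721, 12619 and 14950 bp from the TSS nearest to them. Il2ra, Il18r1 and Runx1 have several TSS close together, and each distance is to the nearest of them, which need not be the same for all members. The intronic members stood in H3K4me1 regions that were separate from the one at the promoter, and the mark covered 53.6% of the span. Il18r1, an IL-18 receptor chain, had the same layout, with a member 43 bp from its nearest TSS and 3 intronic members 7845, 9896 and 13730 bp from theirs. In Stat4, which transmits IL-12 signals, 4 intronic regions formed 2 couples, 445 bp apart in the first couple and with 6085 bp between the couples. Each couple had its own H3K4me1 region, of 4925 and 6335 bp. The group of Il6st, the shared signalling chain gp130, was remote, with 3 members 50196 to 57007 bp from the TSS. The group at Il6ra overlapped that gene at a distance of 32850 to 40809 bp from the nearest TSS. Pairs lay at Ifngr2 (12031 bp), Il12rb2 (9456 bp), Il4ra and Il21r (8483 bp, shared) and the kinase gene Jak1 (8337 bp).

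**Figure D5:**
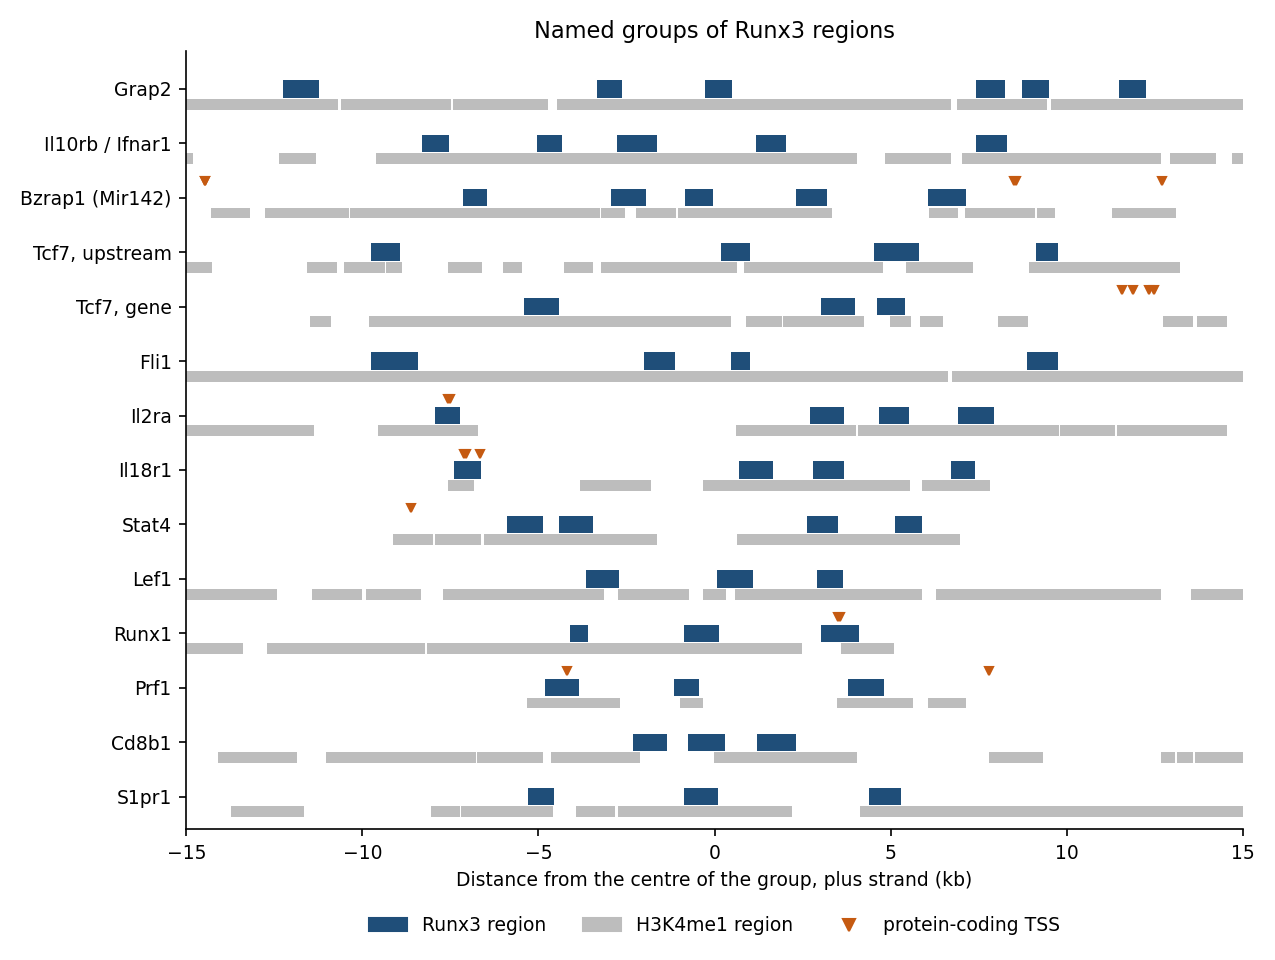
Maps of 14 named groups, each centred on the middle of its span and drawn along the plus strand in kb. Blue boxes are Runx3-bound regions, grey boxes are H3K4me1 regions, and orange triangles are protein-coding TSS. Fli1 and Grap2 lie in nearly continuous H3K4me1, whereas at Il2ra, Il18r1 and Prf1 the member at the TSS and the members further in lie in separate H3K4me1 regions.

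Transcription factor genes had groups in introns and upstream. Tcf7, which encodes the naive and memory T-cell factor TCF-1, had 7 members in 2 groups. An upstream group of 4 spanned 19504 bp (chr11:52112906-52132409), 16629 to 35411 bp from the TSS, and a group of 3 lay inside the gene. The span of the upstream group touched 10 H3K4me1 regions, which covered 70.5% of it. In Fli1, an ETS family gene, 4 intronic members 22921 to 41303 bp from the TSS lay across 2 H3K4me1 regions, of which 1 measured 23631 bp, and 99.4% of the span was covered. Runx1, a paralogue of Runx3, had 3 members across 8211 bp (chr16:92818633-92826843). The first TSS of the gene lay 12 bp from the midpoint of 1 member, and the others were in introns, 3884 and 7370 bp from the TSS nearest to them. In Lef1, a TCF family gene, 3 intronic members lay 41137 to 47606 bp from the nearest TSS, and a pair lay near the promoter. The 3 members nearest to Klf2, a factor of T-cell quiescence and migration, were in introns of Eps15l1, 31915 to 35461 bp from the TSS of Klf2, within a single H3K4me1 region of 19538 bp. Pairs were found at Bach2 (10029 bp and 8325 bp), Klf13 (9115 bp) and Klf3 (6982 bp).

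Groups at effector, homing and feedback genes held 2 to 4 members. At Prf1, 3 members spanned 9611 bp. The first covered the TSS, with its midpoint 147 bp before it, and the last lay beyond the end of the gene. Each overlapped an H3K4me1 region of its own, and H3K4me1 covered 42.6% of the span. Other effector genes had pairs, at Fasl (the death ligand, 6467 bp), Nkg7 (a granule protein, 2780 bp), Klrd1 (the NK receptor chain CD94, 2449 bp) and Gzmb (granzyme B, 1694 bp). The Gzmb pair was 33971 bp or more from the nearest TSS. Selplg, the selectin ligand PSGL-1, had 4 regions with 1 member 17 bp from its TSS and another at the neighbouring Coro1c. The group in Ccr9, a receptor for homing to the gut, had 3 intronic members under a single H3K4me1 region of 11114 bp. Pairs of this list lay at Itgb7 (an integrin chain, 6669 bp), Ccr7 (the lymph node homing receptor, 6020 bp), Cxcr4 (4041 bp) and Cxcr6 (3570 bp). The group of 3 at S1pr1 lay downstream of the gene, 33536 to 43321 bp from the nearest TSS. At Cd69 a group of 3 extended from an intron to 9189 bp upstream. Btg1, an anti-proliferative gene, had 3 members upstream, and beside Zfp36, a gene of mRNA decay, 3 members reached from 3986 bp upstream of its TSS to the promoter of Med29. A group of 3 at Gimap1 and Gimap5, lymphocyte survival GTPases, ended at the promoter of the latter. Pairs lay at Dusp10 (a phosphatase of MAP kinases, 10221 bp), Txnip (a regulator of glucose uptake, 6997 bp), Nfkb1 (4269 bp) and Zfp36l2 (4213 bp), and only 1 member of the Dusp10 pair overlapped H3K4me1.

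Large groups were also found outside the lists. The longest span, 30700 bp, belonged to 5 intergenic regions at chr15:59943006-59973705, whose nearest protein-coding TSS was 95294 bp or more away. All 5 overlapped H3K4me1, but in 16 separate H3K4me1 regions touched by the span, and no H3K4me1 region touched more than 1 member. A group of 5 at chr11:87558376-87572682, upstream of Bzrap1, enclosed Mir142, a microRNA gene of blood cells, at chr11:87570366-87570429. Its members nearest to Mir142 ended at 87568735 and began at 87571591. The fourth group of 5 was at Gramd1a, with 1 member 156 bp from a TSS. Its span was 19773 bp. Groups of 4 at Rac2, which encodes a haematopoietic small GTPase, and at Pdcd4, which encodes a translational repressor, had members both inside and outside the gene, and H3K4me1 covered 94.9% and 80.0% of their spans. The group of 4 inside Mettl8 spanned 24905 bp, of which H3K4me1 covered 44.9%. The next spans were 21830 bp between Rpia and Eif2ak3, where 2 of 3 members were marked, and 20655 bp in Mctp2. Inside Pvt1, the long non-coding RNA beside Myc, 3 members lay 177582 to 190588 bp from the TSS of Myc, the nearest protein-coding gene. Just 1 group on X held 3 members, at Tsc22d3, which encodes the glucocorticoid-induced leucine zipper protein, with a member 73 bp from a TSS.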

How the data were processed

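ChIP-seq libraries for Runx3, H3K4me1 and NIS from resting CD8-TC were used as lists of regions deposited by the authors. Per the study's methods, uniquely aligned reads of 40 to 42 bp (ELAND, mm9; the submitters' notes name CASAVA 1.6 and 1.7) of both repeats were joined, and peaks were called with MACS against NIS. The lists give positions only, with no score, count or p-value, and depth per region is unknown here. Pooling hides repeat-to-repeat differences, and both lists share the NIS control. Starts were moved by 1 bp to browser positions.

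Neighbouring Runx3 regions were joined at edge gaps of 10000 bp or less, and groups of 2 or more were kept. Overlap with H3K4me1 meant 1 bp or more. TSS distances were taken from midpoints, over all GENCODE transcripts on NCBIM37 (mm9) or over protein-coding transcripts where said. Motifs were searched in 200 bp around midpoints. Intervals are Wilson for shares, order-statistic for medians and Newcombe for differences. Python 3.11.15, pandas 2.3.3, numpy 2.4.6 and scipy 1.17.1 were used, and joining, overlap and motif search were tested on simulated data. The members and gene lists were chosen with earlier results of these data known. Genes named are those of the 12 groups with most regions, the 6 longest spans, groups of 3 or more on X, list genes with groups of 3 or more, and up to 4 pairs per list by span, except that a gene the rule would name is not reported here. Mir142, Pvt1, Emb, the unmarked pairs and genes with several groups were named after their values were seen. Other gaps, overlap rules, TSS sets and gene assignments were tried.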

Additional observations from a re-analysis of the deposited data

How the results depend on the processing

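No paired analysis was possible because both repeats of each antibody had been joined before peaks were called and no result comes from a test between samples. The lists hold 1 call per antibody, so no repeat could be left out. Of the 39 alternative values chosen at the start, 28 stayed within 1 interval or 1.5 times the main value, membership counts included (647 with a gap of 5 kb, 1429 with 20 kb). The other 11 moved. The share of members with H3K4me1 was 88.4% if cover of at least 50% was asked for, 85.4% if the midpoint itself had to be marked and 89.6% with regions set to 200 bp, and the share of groups with every member marked was 73.7% with the midpoint rule. A RUNX motif was in 95.2% of members when the whole region was searched. Members beyond 5 kb were 72.0% with protein-coding transcripts only. The median width was 996 bp for the widest region of each group, by construction. Groups inside a gene were 38.0% at a gap of 20 kb. Genes with a group numbered 293 at 5 kb, 699 at 20 kb and 306 with body overlap only. The cause of the other changes was not tested.

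After the data had been examined, the difference in H3K4me1 between members and single regions was recomputed under other overlap rules. It was 24.4 points with 50% cover, 24.0 points with the midpoint rule and 23.6 points with 200 bp. It was 19.0 points on autosomes.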
